A study of Mus musculus with 2 samples.

Results

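The eosinophil-associated ribonucleases Ear1, Ear6, Ear10 and Rnase2a were measured in ventral prostate RNA of ARR2PB-miR32 transgenic mice and of wild-type mice. The members are the array probes whose accessions map to these 4 symbols, which gave 4 probes, 1 for each gene, out of 41174 probes on the array. They were chosen by their ratios between these same RNA pools, so those ratios are given as a description. The transgenic group was 1 pool of RNA from 6 ARR2PB-miR32 transgenic mice, and the wild-type group was 1 pool of RNA from 6 wild type mice. The tissue labels of both arrays give ventral prostate, although the growth text also names dorsolateral prostates, and which lobes entered the pools was not checked otherwise. All were of strain FVB/N (also spelled FBV/N in the labels) and 6 months of age. ARR2PB is derived from the rat probasin promoter, which is active in the epithelium of the prostate and responds to androgen. Both pools were hybridised together on 2 two-colour Agilent arrays with the dyes swapped. Cy3 labelled the transgenic pool on array 1, and Cy5 labelled it on array 2.

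Both arrays hold the same RNA, so each genotype has 1 replicate, no significance test is possible and the SDs below (n = 2 arrays) describe technical error alone, without the spread between mice. All 12 prostate epithelium markers were detected in both pools, among them the secretory products Pbsn, Sbp and Msmb. Across the 13902 detected genes the 2 arrays' log2 ratios had a Pearson r of 0.513, as a description over genes of the same 2 pools.

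Eosinophil-associated ribonucleases are the rodent relatives of the human eosinophil-derived neurotoxin and eosinophil cationic protein. They belong to the RNase A superfamily of small secreted enzymes, which also includes pancreatic-type ribonuclease and the angiogenins. In mice they are known as granule proteins of eosinophils, and several are also made by macrophages, with Rnase2a (also called Ear11) induced in macrophages by type 2 cytokines. Some members of the superfamily kill microbes or attract leukocytes. The genes arose by repeated duplication and remain close copies of each other.

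The microRNA of the transgene belongs to the miR-25/92 seed family. The mouse mature 5p strand of miR-32 in RefSeq (GRCm38.p6) is shown because the transgene is named for miR-32, with the seed, bases 2 to 8, in capitals. The labels give neither the arm nor the species of the transgene's sequence.
mmu-miR-32-5p: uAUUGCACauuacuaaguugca

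The 250 bases before the annotated start site are shown for the 4 members, to let the close relation of the copies be seen, and for Rnase2b, a near copy whose probe was not detected in either pool. The sequences are from RefSeq (GRCm38.p6) and run 5′ to 3′ on the gene's strand. Capitals mark the longest stretch of bases that the 4 members share exactly, and in Rnase2b its closest match.
Ear1, chr14:43819640-43819889, minus strand: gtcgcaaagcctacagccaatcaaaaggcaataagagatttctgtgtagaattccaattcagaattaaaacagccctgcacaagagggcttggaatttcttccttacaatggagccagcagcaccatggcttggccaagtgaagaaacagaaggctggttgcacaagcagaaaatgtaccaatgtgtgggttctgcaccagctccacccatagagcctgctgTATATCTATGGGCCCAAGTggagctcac
Ear10, chr14:43923597-43923846, minus strand: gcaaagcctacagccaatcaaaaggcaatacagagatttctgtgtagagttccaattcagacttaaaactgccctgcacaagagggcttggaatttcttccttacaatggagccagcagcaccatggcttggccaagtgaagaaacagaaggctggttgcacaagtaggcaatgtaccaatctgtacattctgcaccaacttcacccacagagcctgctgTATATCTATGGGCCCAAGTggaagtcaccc
Rnase2a, chr14:51256113-51256362, minus strand: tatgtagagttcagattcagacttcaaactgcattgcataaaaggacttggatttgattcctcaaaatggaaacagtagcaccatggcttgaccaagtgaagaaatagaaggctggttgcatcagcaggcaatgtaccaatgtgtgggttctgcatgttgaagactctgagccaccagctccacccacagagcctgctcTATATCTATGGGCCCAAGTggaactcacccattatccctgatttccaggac
Ear6, chr14:51853518-51853767, plus strand: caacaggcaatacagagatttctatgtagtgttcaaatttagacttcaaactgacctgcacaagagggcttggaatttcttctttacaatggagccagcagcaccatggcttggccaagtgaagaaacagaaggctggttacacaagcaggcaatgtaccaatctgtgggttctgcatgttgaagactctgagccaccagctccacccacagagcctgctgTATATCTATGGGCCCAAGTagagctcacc
Rnase2b, chr14:51162010-51162259, plus strand: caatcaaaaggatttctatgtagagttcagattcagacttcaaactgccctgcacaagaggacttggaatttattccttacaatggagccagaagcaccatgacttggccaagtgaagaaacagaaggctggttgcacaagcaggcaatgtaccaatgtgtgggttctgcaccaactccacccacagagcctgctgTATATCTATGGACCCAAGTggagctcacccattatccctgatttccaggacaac

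The shared stretch is 19 bases long and ends 9 bases before the annotated start site in Ear1, 11 in Ear10, 10 in Ear6 and 32 in Rnase2a. Of 32851 windows of 250 bases before a start site in the RefSeq table, searched on both strands, 5 hold it (0.0152%), those of the 4 members and of Ear2. Counted from 1 at the 5′ end of the stretch, Rnase2b differs from it by 1 substitution, G12A. Between pairs of windows, Ear1 and Ear10 were identical at 93.9% of aligned bases, Ear10 and Ear6 at 93.1% and Ear1 and Ear6 at 92.6%. These pairs had 247, 231 and 229 aligned bases, and unaligned bases were not counted. Rnase2a was the most distant member, at 86.1% of 208 aligned bases to Ear1, 86.7% of 210 to Ear10 and 88.2% of 228 to Ear6. Rnase2b was as close, identical to Rnase2a at 91.3% of aligned bases and to Ear6 at 93.3%. Ear2, which has no matched probe here, was identical to Ear1 at 99.2%. The deposited files used here give no probe sequences, so signal shared between Ear1, Ear2 and the other copies was not tested.

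A search of both strands for letters that textbooks give for factors of myeloid and prostate cells found few matches in these windows. The C/EBP letters TTGCNNAA occurred in Ear1, Ear10 and Rnase2a, 3 of 4 members, against 9.56% of all windows, and did not occur in Ear6. They began 92 bases before the start site in Ear1, 94 in Ear10 and 217 in Rnase2a. The window of Rnase2b shown above, whose probe was not detected, holds them too, as TTGCACAA. The windows are close copies of each other, so the share over all windows is no measure of what sets the members apart. The GATA letters AGATAA occurred in 0 of the 4 members and in 9.99% of all windows. The STAT6 palindrome, TTC and GAA with 4 bases between them, occurred in 0 members and in 5.85% of windows, and the androgen receptor half-site AGAACA in 0 members and in 16.1%. The TATA box letters TATAAA were found in 0 members and in 12.4% of windows. A match is a description of letters and not a site, and only the C/EBP letters matched in the members, so no motifs overlapped there.

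All 4 members had higher signals in the transgenic pool than in the wild-type pool on both arrays. The members were chosen by these ratios, and both values of a pool come from the same RNA. Of the 13902 detected genes, the members among them, 3424 had a log2 ratio above 0 on both arrays. The share of all genes whose pools do not overlap was not counted. The lack of overlap given below for each member is therefore a description. Ear1 showed the highest ratio at 4.13-fold, and Ear10, Ear6 and Rnase2a followed at 2.66-fold, 2.51-fold and 2.16-fold. Levels below are normalised intensities of each pool's dye on a linear scale, after background correction with an added constant of 50 that draws ratios of dim spots towards 1. In RNA from whole tissue, more cells of a type and more RNA per cell cannot be told apart.

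Ear1, a granule ribonuclease of eosinophils, had levels of 474 and 495 in the transgenic pool on arrays 1 and 2, against 150.3 and 91.6 in the wild-type pool. The lowest transgenic value was above the highest wild-type value, and neither pool fell short of the scanner's background limit on either array. The log2 ratio was 1.66 on array 1 and 2.44 on array 2, a mean of 2.05 ± 0.55 (SD, n = 2 arrays).

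Ear10, the neighbour and close copy of Ear1, had levels of 309 and 227 in the transgenic pool and 120.0 and 83.1 in the wild-type pool. The pools did not overlap, but for the wild-type pool array 2 alone, 1 of 2, gave a spot well above background. Its Cy5 spot on array 1 read 130 against a local background of 110.5, while the Cy3 spot on array 2 read 82 against 27. The log2 ratios of 1.37 and 1.45 gave a mean of 1.41 ± 0.06 (SD, n = 2 arrays).

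Ear6, a further copy that lies apart from Ear1 and Ear10 on the same chromosome, had levels of 233 and 175 in the transgenic pool and 88.3 and 73.1 in the wild-type pool. Here too the pools did not overlap and the wild-type spot passed the background limit on 1 of 2 arrays. In Cy5 on array 1 the wild-type spot read 108 against a local background of 106.5, so that array measured next to no wild-type signal. In Cy3 on array 2 it read 57 against 24. The mean log2 ratio was 1.33 ± 0.10 (SD, n = 2 arrays), from 1.40 and 1.26.

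Rnase2a, the macrophage-inducible member, had levels of 422 and 275 in the transgenic pool and 195 and 128 in the wild-type pool. Each array showed a higher transgenic level, and the lowest transgenic value exceeded the highest wild-type one. Its signal passed the scanner's background limit everywhere. Its log2 ratios of 1.12 and 1.11 gave a mean of 1.11 ± 0.01 (SD, n = 2 arrays), the smallest of the members and the one on which the arrays differed least.

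**Figure D1:**
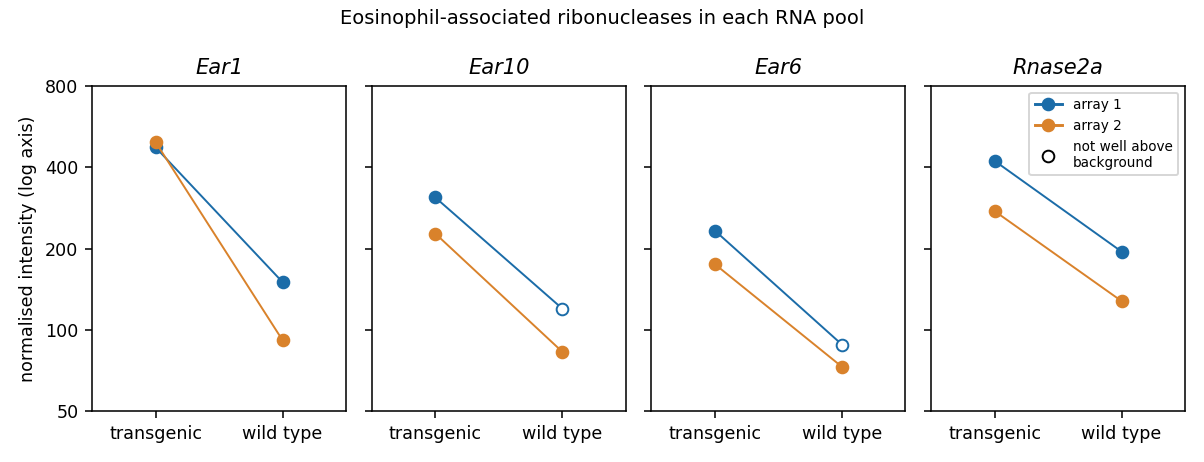
Normalised intensity (log axis) of the 4 eosinophil-associated ribonucleases in the transgenic and the wild-type RNA pool, with a line for each array; open circles mark spots not well above background. Each line is higher at the transgenic pool than at the wild-type pool, and the open circles are the wild-type spots of Ear10 and Ear6 on array 1.

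The size of these ratios depended on how background was handled. Agilent's own processed signals, which carry no added constant, gave log2 ratios of 3.40 for Ear1, 3.78 for Ear10, 3.69 for Ear6 and 1.77 for Rnase2a. As folds these are 10.6, 13.7, 12.9 and 3.42. On arrays 1 and 2 the log2 ratios were 4.49 and 3.06 for Ear10 and 2.90 and 4.47 for Ear6. Those of array 1 rest on wild-type spots not well above background. With Agilent's processed signals Ear10 and Ear6 no longer stood below Ear1, so the order of the members by ratio was not settled. The exception was Rnase2a, which had the smallest ratio in every setting that measured all 4. In the authors' deposited table, which lists Ear1 and Rnase2a and neither Ear6 nor Ear10, the mean log2 ratios were 3.33 and 1.71.

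Calls were made from size alone: a higher or lower gene had a mean log2 ratio of 1 or more in size, with each array 1.5-fold or more to that side. By this rule 1.09% of the 13902 detected genes were higher (151 genes) and 3.53% were lower (491 genes). The 4 members were all called higher, a count that follows from how they were chosen and that supports nothing. Rnase2a lay closest to the limit, with 2.15-fold on its smaller array. The share of higher calls over all genes was 0.935% without background correction, 2.22% with Agilent's processed signals and 0.712% with median centring, settings under which the 4 members were also called. On single arrays it was 1.95% for array 2 and 3.24% for array 1. It was 1.25% in the authors' deposited table and 1.05% with detection required in both pools, where Ear1 and Rnase2a alone were measured and called. Over all detected genes the median log2 ratio was 0.01 and the SD 0.52.

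**Figure D2:**
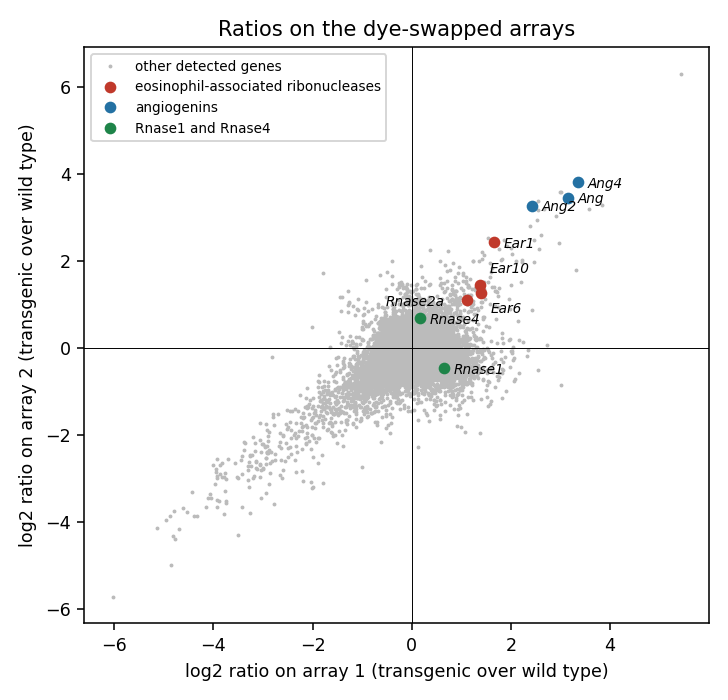
Log2 ratio, transgenic over wild type, on array 1 (x axis) against array 2 (y axis) for each detected gene. The eosinophil-associated ribonucleases lie between 1.11 and 2.44 on each array, below Ang, Ang2 and Ang4 in mean ratio at the offset of 50 and away from the cloud around 0 that holds Rnase1 and Rnase4.

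In the rest of the RNase A superfamily the angiogenins with a probe were higher. Over all detected genes 1.09% were called higher and 3.53% lower. Of 16 other family symbols in the RefSeq table, 9 had a probe and 5 were detected, of which 3 were higher and 0 lower, with a median log2 ratio of 2.85. The 3 higher genes were the angiogenins Ang, Ang2 and Ang4, while Ang5 and Ang6 had no matched probe. Angiogenins are secreted ribonucleases known for blood vessel growth and, in the case of Ang4, for killing gut microbes. Ang4 stood at 3.59 ± 0.32, Ang at 3.31 ± 0.22 and Ang2 at 2.85 ± 0.61, each above the members with the added constant of 50. With Agilent's processed signals they stood at 3.75, 4.14 and 3.99, next to Ear10 at 3.78 and Ear6 at 3.69, so the order of angiogenins and members was not settled.

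Rnase4 and Rnase1 did not pass the rule. Rnase4, a ribonuclease that shares its promoter region with Ang, had 2 detected probes that differed in sign, at 0.43 ± 0.38 and -0.49 ± 0.15. Ang and Rnase4 thus gave log2 ratios of 3.31 and 0.43 by the probes used. Rnase1, the pancreatic-type enzyme, stood at 0.09 ± 0.78 with the arrays on opposite sides of 0, and its other probe gave -0.01 ± 0.11.

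Rnase2b, Rnase6, Rnase9 and Rnase10 were not detected. The probe of Rnase2b, the closest measured relative of Rnase2a, was well above background in neither pool on either array (0 of 2 arrays each). Its spots read 35 and 121 in the transgenic pool against local backgrounds of 28 and 125, and 119.5 and 40 in the wild-type pool against 123 and 26. Rnase6, a ribonuclease of macrophages and other myeloid cells, was well above background on 1 of 2 arrays in each pool, in Cy3 both times. Its log2 ratios of -0.26 and -0.73 lay on the opposite side of 0 from those of the members.

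**Figure D3:**
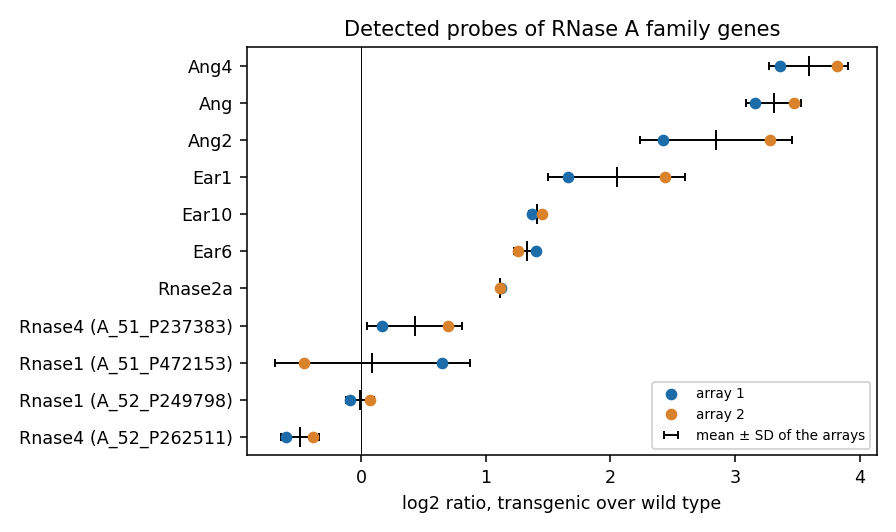
Log2 ratio, transgenic over wild type, of every detected probe of an RNase A family gene; dots are the arrays, bars the mean ± SD of the 2 arrays, and probe names are given where a gene has more than 1. At the offset of 50 the angiogenins lie highest, the 4 eosinophil-associated ribonucleases between 1.11 and 2.05, and the probes of Rnase1 and Rnase4 around 0.

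Outside the superfamily, the cytosolic ribonuclease inhibitor Rnh1, which binds and blocks RNase A enzymes, was level between the pools. It had 1672 and 1701 in the transgenic pool and 1530 and 1559 in the wild-type pool, a log2 ratio of 0.13 on each array. The lysosomal ribonuclease Rnaset2b stood at -0.01 ± 0.30, the endoribonuclease Rnasek at 0.15 ± 0.24 and the cytokine mRNA nuclease Zc3h12a at -0.89 ± 0.59. Of the 4 detected genes of this list 0 were called in either direction, and its median was 0.06.

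The members sit in 2 places of mouse chromosome 14. In the RefSeq gene order all 20 RNase A symbols of the table fall in a run of 117 protein-coding genes, with Ear1 and Ear10 next to each other at one end. Ang5 and Ang6, which have no matched probe, follow Ear10. Rnase2a and Ear6 lie near the other end, close to Ang, Ang2 and Ang4, with Ear14 between Ang2 and Rnase2a. The run also holds 97 genes of other families, of which 36 were detected. Of these, 0 were higher and 1 was lower, against 1.09% higher and 3.53% lower over all detected genes. The median log2 ratio of these 36 genes was -0.06 with a range of -1.46 to 0.74. The lower gene was Lgals3, the lectin galectin-3 of macrophages and epithelia. Higher calls in the run were made for the 4 members and the 3 angiogenins with a probe. The members were chosen by their ratios, so their contrast with the neighbours is a description.

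**Figure D4:**
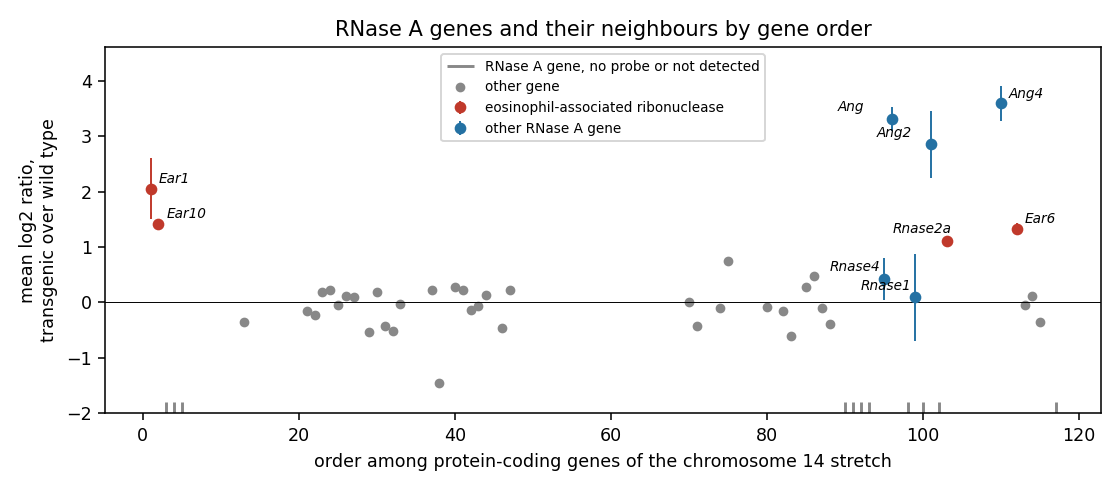
Mean log2 ratio, transgenic over wild type, against gene order in the stretch of chromosome 14 that holds the RNase A genes, with bars for the SD of the 2 arrays on RNase A genes and ticks for RNase A genes with no detected probe. Genes of other families lie between -1.46 and 0.74, and the 4 members and 3 angiogenins lie above 1.

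Genes that define eosinophils were at or near background in both pools. Of 12 eosinophil markers 10 had a probe and 1 was detected, with 0 higher and 0 lower. The granule protein genes Prg2 (major basic protein), Prg3 and Epx (eosinophil peroxidase) were not detected, nor were the receptors Ccr3, Il5ra and Siglecf. Epx had levels of 66.5 and 72.4 in the transgenic pool and 72.8 and 66.8 in the wild-type pool, and Prg3 had 69.4 and 75.5 against 67.3 and 72.0, all not well above background. Prg2 was well above background on 1 array in the transgenic pool and on 0 in the wild-type pool, at 97.3 and 94.1 in the transgenic pool and 109.7 and 70.8 in the wild-type pool, so that its levels overlapped.

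Il5ra, the receptor for the eosinophil growth factor, stood at 0.02 ± 0.22, Siglecf at 0.04 ± 0.15 and Ccr3 at 0.03 ± 0.15, values that rest on spots near background. The lipoxygenase Alox15, the transcription factor Gata1 and the alarmin receptor Il1rl1 gave -0.12 ± 0.04, 0.00 ± 0.04 and 0.18 ± 0.39, and were not detected either. The detected marker was Ltc4s, the leukotriene C4 synthase that mast cells and macrophages also make, at -0.23 ± 0.14. Summed over the 10 genes, the marker level was 852 and 912 in the transgenic pool and 908 and 868 in the wild-type pool, ranges that overlap. All of these genes but Ltc4s were undetected, so the sum is mostly residual background and the added constant. It cannot show whether marker content was equal between the pools.

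Among signals that attract or support eosinophils, the called genes were lower. Of 20 genes of eosinophil recruitment and type 2 signalling 13 were detected, 0 were higher and 4 were lower, against 3.53% lower calls over all genes, and the list median was -0.62. The eosinophil chemokines eotaxin-1 (Ccl11) and eotaxin-2 (Ccl24) stood at -0.36 ± 0.59 and -0.08 ± 0.02 and did not pass the rule. The 4 lower genes were the chemokines Ccl8 (-3.65 ± 0.13) and Ccl5 (-1.43 ± 0.02), the shared receptor subunit Csf2rb (-1.21 ± 0.42) and the interleukin-4 receptor Il4ra (-1.07 ± 0.09). For Csf2rb another detected probe gave 0.08 ± 0.23. The cytokine genes Il4, Il5 and Il13 were not detected, and the epithelial alarmin Il33 stood at -0.85 ± 0.77. Il13ra1, a receptor subunit for interleukin-13, lay on the other side of 0 at 0.76 ± 0.04 (0.79 and 0.74), short of the rule, but it passed with Agilent's processed signals at 1.36 and in the authors' deposited table at 1.29. Another detected probe of Il13ra1 gave 0.26 ± 0.19, with 0.84 from Agilent's processed signals and 0.78 in the deposited table, short of the rule. Il13ra1 was named after its values were seen.

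Genes of macrophages, the other known source of these ribonucleases, were mostly lower. Over all detected genes 1.09% were called higher and 3.53% lower. Of 17 detected general macrophage markers 11 were lower and 0 higher, with a median log2 ratio of -1.28, and the lowest was the lysosomal protease Ctss at -2.62 ± 0.61. The lysozyme gene Lyz2 stood at -2.17 ± 0.05, the actin-bundling marker Aif1 at -1.79 ± 0.40, Ms4a7 at -1.73 ± 0.12, the signalling adaptor Tyrobp at -1.51 ± 0.04 and Mpeg1 at -1.51 ± 0.27. Another detected probe of Mpeg1 gave 0.19 ± 0.49. Summed over 18 genes the macrophage level was 5538 and 5864 in the transgenic pool, against 16235 and 19066 in the wild-type pool.

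Of 7 detected genes of alternative macrophage activation 1 was higher and 1 lower, with a median of -0.58. The shares over all detected genes were 1.09% and 3.53%. The higher gene was Arg1, arginase, at 2.98 ± 0.10, and the lower gene was the lectin Clec10a at -1.54 ± 0.05. Retnla, a secreted product of such macrophages, stood at -0.55 ± 0.01 by the probe used and at 1.01 ± 2.62 by another, on which the arrays disagreed. The mannose receptor Mrc1 stood at -0.58 ± 0.39, and Chil3 was not detected. Alveolar macrophages are known to make Ear genes, and of their 9 markers 4 were detected and 0 called. That list's median was 0.08, with 0.24 on array 1 and -0.16 on array 2, so its direction was not settled, and Marco, Car4 and Siglecf were not detected.

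In the neutrophil and lymphocyte lists every called gene was lower, while 3.53% of all detected genes were called lower. Neutrophil markers had 2 lower and 0 higher genes of 4 detected, lactoferrin (Ltf, -3.90 ± 0.56) and the calgranulin S100a9 (-2.40 ± 0.14), with a summed level of 1481 and 1590 in the transgenic pool and 9231 and 16151 in the wild-type pool. Most of that sum is Ltf, also a secretory product of glandular epithelia, with levels of 707 and 742 in the transgenic pool and 8002 and 14539 in the wild-type pool. The neutrophil granule genes Mpo, Elane, Ngp and Camp were not detected. Of 11 detected lymphocyte markers 8 were lower and 0 higher, with a median of -1.52, led by Cd79b (-3.80 ± 0.20) and Ms4a1 (-3.70 ± 0.30) of B cells and the immunoglobulin joining chain Jchain (-3.54 ± 0.15). The pan-leukocyte phosphatase Ptprc stood at -2.57 ± 0.03. Mast cell and basophil markers had 1 detected gene of 8 with a probe, Gata2 at 0.05 ± 0.36 (0.41 ± 0.02 by another probe), while Cpa3, Cma1, Mcpt8 and Ms4a2 were not detected. The members' ratios thus had the opposite sign to the medians of the general macrophage, neutrophil and lymphocyte lists, but not to those of the alveolar macrophage list (0.08) and the mast cell and basophil list (0.05), which lay near 0 with the arrays on opposite sides. The part of leukocyte content in the members' ratios was not tested.

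**Figure D5:**
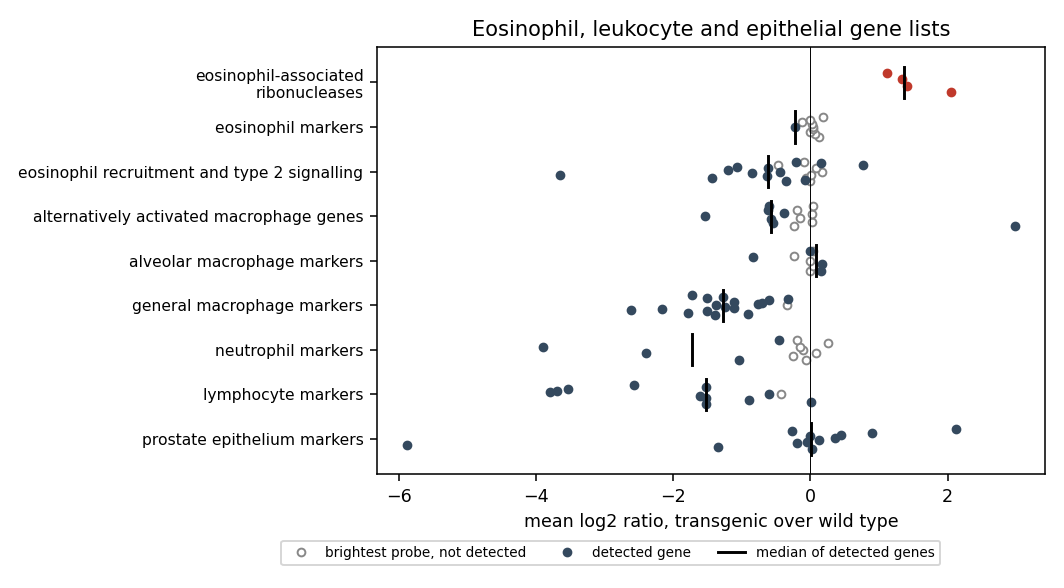
Mean log2 ratio, transgenic over wild type, of the 4 eosinophil-associated ribonucleases and of genes in 8 lists; filled dots are detected genes, open dots the brightest probe of genes not detected, and bars the median of detected genes. The ribonucleases have a median of 1.37, while the medians of the macrophage, neutrophil and lymphocyte lists lie at -1.28, -1.72 and -1.52 and nearly all eosinophil markers are undetected.

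Epithelial markers stayed near 0 as a list, with a median log2 ratio of 0.01 over 12 genes, or -0.14 on array 1 and 0.26 on array 2. Tgm4, a transglutaminase of prostatic secretion, was higher at 2.12 ± 0.14, and Spink1, a trypsin inhibitor, and Sbp, the spermine-binding protein, were lower at -5.88 ± 0.21 and -1.35 ± 0.55. The luminal keratin genes Krt8 and Krt18 stood at 0.36 ± 0.38 and 0.00 ± 0.43.

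For each member the 3 detected genes with the most similar pair of array ratios were looked up outside the RNase A superfamily, by Euclidean distance over the 2 arrays. The nearest to Ear1 were the metallothioneins Mt1 and Mt2, with mean log2 ratios of 2.05 and 2.04 at distances of 0.00445 and 0.155, and the goblet cell secretion gene Clca1 at 2.02. The nearest to Ear10 were Klf8, a Krüppel-like transcription factor, at 1.42, the homeobox gene Barx2 at 1.40 and the keratin Krt78 at 1.33. The nearest to Ear6 were Lratd1 at 1.30, Fgd5 at 1.33 and again Barx2. The nearest to Rnase2a was the stress-induced gene Ddit4 at a distance of 0.0209. With 2 arrays of the same pools such likeness is a description of size and technical agreement only.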

How the data were processed

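Members, gene lists and calls were chosen with earlier results of these data known. Per the labels' protocols, labelling used 100 ng of RNA and Agilent's Low Input Quick Amp chemistry. Per the file headers, Feature Extraction 11.0.1.1 read the arrays and their annotation build is mm9. The deposited intensity values are median pixel values of spot and local background per dye, not normalized, and processed intensities that Feature Extraction background-subtracted and dye-normalized. Per the file headers a log10 ratio of Cy5 over Cy3 comes from the latter. The deposited series table holds log2 values for 15511 probes. Each column has a median of 0 and correlated at r = 1 after rounding with the scanner's ratio turned to transgenic over wild type, and how its probes were picked was not given in the sources used here.

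From the median signals, limma 3.58.1 (R 4.3.3) removed background by normexp with an offset of 50 and then applied loess to each array's ratios, with 1639 control spots and the 448 and 299 outlier spots at weight 0. No spot was saturated (0 spots). Levels per pool are after Aquantile normalization between arrays. Detection required that at least 1 pool carried the scanner's well-above-background mark on array 1 and also on array 2, and a gene was represented by its brightest detected probe. Symbols came from a RefSeq table (GRCm38.p6), matched on accession for 27816 of 41174 probes, for names and gene order alone. The code was tested on simulated data.

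The text names all 4 members, all detected RNase A genes, every eosinophil marker with a probe, and called genes of the other lists up to the 5 largest in size. Some genes that these rules name are not reported here. Other genes were named after their values were seen. The number of arrays, 2 of the same pools, limits the precision. Background handling, normalization, the authors' table, probe averaging, detection and single arrays were varied, and 2 lower normexp offsets were added after seeing the data.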

Additional observations from a re-analysis of the deposited data

How the results depend on the processing

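Each member was higher in the transgenic pool under every alternative that measured it, and the 3 angiogenins were the RNase A genes called higher besides the members under each one (0 lower). Without background correction the mean log2 ratios were 1.85 for Ear1, 1.24 for Ear10, 1.19 for Ear6 and 1.04 for Rnase2a, and with median centring in place of loess 2.11, 1.54, 1.45 and 1.22. Feature Extraction's ratios gave 3.40, 3.78, 3.69 and 1.77. With an offset of 16, chosen after seeing the data, they were 2.45, 1.85, 1.92 and 1.33, and with an offset of 0 2.72, 2.20, 2.49 and 1.47, so a smaller added constant gave larger ratios. In the authors' deposited table Ear1 stood at 3.33 and Rnase2a at 1.71. There, and with detection required in both pools, 2 of the members were measured and called. The table does not list Ear6 and Ear10, and the detection rule left them out because their wild-type spots were well above background on 1 array. The single arrays gave 1.66 to 2.44 for Ear1, 1.37 to 1.45 for Ear10, 1.26 to 1.40 for Ear6 and 1.11 to 1.12 for Rnase2a. Higher calls over all genes numbered 309 with Feature Extraction's ratios, 99 with median centring and 271 to 450 on single arrays, against 151. Lower calls numbered 938 with Feature Extraction's ratios, 267 with detection in both pools and 770 with an offset of 0, against 491, and 589 to 599 on single arrays. Some list medians moved but kept their sign in each setting. Neutrophil markers ran from -4.35 in the deposited table to -0.20 without a filter on dim probes. Lymphocyte markers ran from -3.02 in that table to -1.38 without background correction, and general macrophage markers from -1.86 there to -1.14 with probes averaged. Genes of eosinophil recruitment and type 2 signalling ran from -0.94 with an offset of 0 to -0.28 without the filter. Genes of alternative macrophage activation ran from -0.69 with an offset of 0 to -0.24 without the filter. The median changed sign to 0.03 without the filter for eosinophil markers. It changed sign to -0.16 on array 2 for alveolar macrophage markers and to -0.12 on array 1 for other ribonucleases. For mast cell and basophil markers it changed to -0.21 on array 1 and to -0.01 without the filter. For epithelial markers it changed to -0.14 on array 1 and to -0.05 in the authors' deposited table. No paired analysis was possible because each genotype has 1 replicate. Dim wild-type signals in Cy5, whose local background averaged 113 and 116 against 25.8 and 26 in Cy3, limit the ratios of Ear6 and Ear10.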
